A study of Mus musculus with 8 samples.

Results

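Cytosolic ribosomal protein genes encode the proteins that, with ribosomal RNA, build the large and small subunits of the ribosome in the cytosol. They were taken as the probe sets whose RefSeq transcript maps to a symbol that starts with Rpl or Rps and a digit, or to Rplp0, Rplp1, Rplp2 or Rpsa, without Rps6k genes, Rps19bp1 and symbols that end in -ps. This gave 29 probe sets, which hold 27 distinct value profiles of 27 genes among 18172 distinct profiles on the array. Of the 27 genes, 12 code for proteins of the large subunit, 10 for proteins of the small subunit, and 5 are paralogues (Rpl39l, Rpl3l, Rpl7l1, Rps27l and Rps4l). RefSeq lists 88 protein-coding mouse symbols that meet the rule. Of these, 26 had a matched probe set and 62 had none, so most of the ribosome's proteins were not followed here. The remaining member, Rps4l, is read through a transcript that RefSeq classes as non-coding. Symbols were found for 81.2% of the probe sets, so some without a symbol may read further members.

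Ribosomal protein mRNAs are among the most abundant in a growing cell, and most begin with a C followed by a run of pyrimidines, a start through which mTOR signalling controls their translation. Several ribosomal proteins that are not built into ribosomes bind MDM2, the ubiquitin ligase that degrades p53. Rps27l, a paralogue of Rps27, is known as a direct target gene of p53.

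The study asked which genes go with asymmetric self-renewal, in which a dividing cell keeps 1 cycling daughter, and set an asymmetrically renewing mouse culture against symmetrically renewing ones. The Ind-8 line (ASYM) consists of p53-null fibroblasts in which zinc switches on a wild-type mouse p53 cDNA from a metallothionein promoter. Con-3 cells (SYM) carry the vector and no p53 cDNA, and are a vector control by the methods but the congenic parent by the labels. tI-3 cells (p53SYM) were derived from Ind-8 by adding a constitutive IMPDH II transgene, so they make p53 and renew symmetrically. All cultures spent 48 h in 65 µM ZnCl2 with 5 µg/ml puromycin. G418 was added for tI-3 cells alone, at 1 µg/ml by the labels, while the methods give the amount in mg. Total RNA of independent preparations went onto 1 Affymetrix array each, which gave 3 Ind-8, 3 Con-3 and 2 tI-3 arrays. Each state is 1 cloned line, so a difference between states cannot be told apart from a difference between lines. Arrays gave RMA levels on the log2 scale, with a precision that their number per line limits.

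The labels name p53 and IMPDH II, and the array holds probe sets for Trp53, Impdh1 and Impdh2. Whether the probes read the introduced cDNAs, the genes of the cell or both was not tested. Trp53 measured 5.68, 5.87 and 5.80 on the Ind-8 arrays, 5.21, 5.29 and 5.27 on the Con-3 arrays, and 5.60 and 5.69 on the tI-3 arrays. Both p53 lines lay above every Con-3 array, with a log2 change of 0.53 for Ind-8 (standard error 0.0873, limma adjusted p = 0.0018) and of 0.39 for tI-3 (standard error 0.0977, limma adjusted p = 0.0141). The tI-3 call was lost without tI-3 replicate 2, where the Trp53 change was 0.34 (limma adjusted p = 0.106). It was also lost when the arrays were quantile-normalized again without Con-3 replicate 3, a setting chosen after the values were seen. Mdm2, itself a p53 target, was 2.00 higher in Ind-8 than in Con-3 cells and 0.72 higher in tI-3 than in Con-3 cells (limma adjusted p = 8.52e-06 and 0.00468). Cdkn1a, the p53 target that encodes a CDK inhibitor, was higher by 3.81 and 1.59 in the same comparisons. Impdh2 averaged 12.19 in Ind-8, 12.53 in Con-3 and 12.36 in tI-3 cells. Its change was −0.34 in Ind-8 against Con-3 (limma adjusted p = 0.0112) and −0.17 in Ind-8 against tI-3 (limma adjusted p = 0.163). In tI-3 against Con-3 it was −0.17 (limma adjusted p = 0.179). Both tI-3 arrays lay below all Con-3 arrays and above all Ind-8 arrays. Neither change that involves tI-3 cells was called, so the line with the transgene had no called rise of Impdh2 over either other line. Impdh1 passed the test in none of the 3 comparisons.

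The label of fibroblast was checked on 10 markers, all with a probe set. Of these, 8 lay above the dim end of the array, a mean of 4.29 below which the lowest 25% of probe sets fall. The probe set of Vim had the highest level of the list, which does not rank abundance between genes, and Thy1 and Lum lay below the dim end. Of the collagens on the list, Col1a1 and Col3a1 were called in both comparisons with tI-3 cells and not in Ind-8 against Con-3. Col1a2 was not called in any comparison. Col3a1 had a log2 change of −2.68 in tI-3 against Con-3 cells (limma adjusted p = 0.000574). The summed linear level of the 10 markers was 35570, 38650 and 39370 on the Ind-8 arrays, 28080, 30620 and 32220 on the Con-3 arrays, and 26960 and 26540 on the tI-3 arrays. In Ind-8 against Con-3, 2 of the 10 were higher and 1 lower. In Ind-8 against tI-3, 5 were higher and 1 lower, and in tI-3 against Con-3, 3 were higher and 3 lower. The cultures were read in bulk, so fewer cells of a type and less RNA per cell cannot be told apart.

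Among 6 epithelial markers, Epcam, Krt18 and Cdh1 lay below the dim end. Krt19 was 0.82 higher in Ind-8 than in Con-3 cells and 1.04 higher than in tI-3 cells (limma adjusted p = 0.00528 and 0.0027), and it was the 1 called gene of the 6 in both. The other 5 markers had negative changes in Ind-8 against tI-3, none of them called, and the median of the 6 was −0.08. The summed linear level of the list was 1195, 1513 and 1527 on the Ind-8 arrays, 655, 987 and 892 on the Con-3 arrays, and 746 and 746 on the tI-3 arrays. Of 5 endothelial markers, Kdr alone lay above the dim end, with a change of −0.32 in Ind-8 against Con-3, −0.76 in Ind-8 against tI-3 and 0.44 in tI-3 against Con-3, all called by limma (adjusted p = 0.0385, 0.000836 and 0.0129). Of the blood cell markers, Cd3e, of T cells, and Adgre1, of macrophages, were lower in Ind-8 than in tI-3 cells, and Cd3e was higher in tI-3 than in Con-3 cells. The summed linear levels ran from 112 on Ind-8 replicate 2 to 170 on tI-3 replicate 2 for the endothelial list. The part of any of these in the results on ribosomal protein genes was not tested.

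A pair of arrays stood apart before any comparison was made. On Con-3 replicate 3 the control probes for the RNA of the small ribosomal subunit measured 10.97, 9.53 and 11.38 for the 5′, middle and 3′ parts of that RNA. On the other 7 arrays they reached at most 5.25, 6.45 and 7.67. On tI-3 replicate 2 the bright end of the array was low. Its actin and Gapdh 3′ controls measured 14.19 and 13.57, against at least 14.43 and 13.87 on every other array.

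Of the 27 ribosomal protein genes, 13 lie above the 99th percentile of all probe sets (a mean level of 12.07). Each array's shift was taken as the median, over genes, of its difference from the 8-array mean. For the 27 genes it was 0.04, 0.04 and −0.05 on the Ind-8 arrays, 0.07, 0.10 and 0.11 on the Con-3 arrays, and −0.0045 and −0.25 on the tI-3 arrays. For all probe sets above the 99th percentile it was −0.17 on tI-3 replicate 2, and for all probe sets 0.01. After the arrays were quantile-normalized again, the 27 genes' shift on that array was −0.07. The hybridization controls also differed, at 10.44 on Con-3 replicate 3 and at 10.24 and 10.46 on the tI-3 arrays, against 9.88 to 10.00 elsewhere. What lowered the bright genes on tI-3 replicate 2 was not tested, so the counts of limma calls among the 27 genes (adjusted p under 0.05) that involve tI-3 cells are given with and without that array, and the calls that end without it are named. Counts by unadjusted p, interval or rank product come from all 8 arrays.

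**Figure D1:**
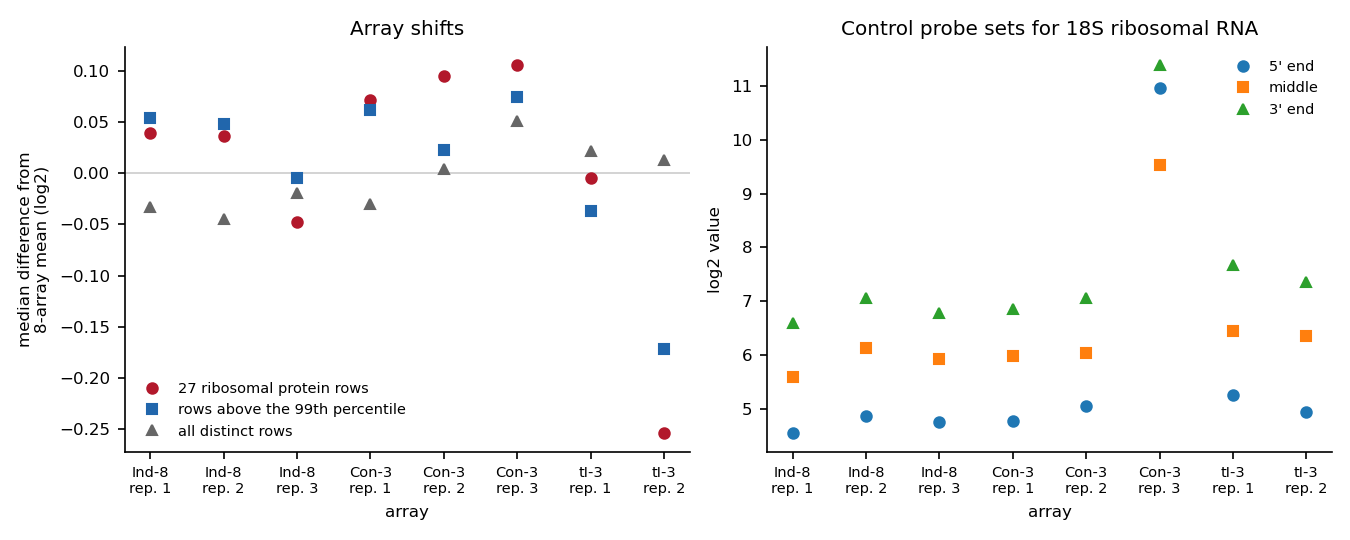
Median shift of each array from the mean of the 8 arrays on the log2 scale, for the 27 ribosomal protein genes, for probe sets above the 99th percentile and for all probe sets (left), and the level of the control probes for the RNA of the small ribosomal subunit (right). The ribosomal protein genes lie lowest on tI-3 replicate 2, at −0.25.

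By limma at an adjusted p under 0.05, with Benjamini-Hochberg adjustment over the 18172 profiles, 1 of the 27 was higher and 3 were lower in Ind-8 than in Con-3 cells. Over the whole array, limma called 10.8% of profiles higher and 10.2% lower in that comparison. For Ind-8 against tI-3, 6 of the 27 were higher and 1 was lower, where limma called 15.9% of all profiles higher and 14.8% lower. In tI-3 against Con-3, 0 were higher and 8 were lower, where limma called 10.3% of all profiles higher and 15.6% lower. At an unadjusted p under 0.05 the counts of higher and lower genes were 1 and 6 in the first comparison, 10 and 2 in the second, and 0 and 11 in the third. For all 18172 profiles they were 2826 and 3179, 3771 and 4151, and 3157 and 3740. The 3 comparisons share arrays, so their counts are not separate evidence.

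The rank product test, at a proportion of false positives (pfp) under 0.05, called 0 of the 27 in either direction in each comparison. It called 2.16% of all profiles higher and 1.51% lower in Ind-8 against Con-3. These shares were 1.63% and 0.451% in Ind-8 against tI-3, and 0.638% and 1.67% in tI-3 against Con-3. The lowest pfp among the 27 was 0.161, that of Rpl21 as lower in Ind-8 than in Con-3 cells.

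The median log2 change of the 27 genes was −0.064 in Ind-8 against Con-3, near the −0.056 over all profiles. It was 0.15 in Ind-8 against tI-3, where the median over all profiles was −0.06, and −0.20 in tI-3 against Con-3, where that median was 0.03. These medians kept their sign but shrank to 0.03 and −0.07 when the arrays were quantile-normalized again. That scaling ended the calls of Rpl22, Rpl32 and Rpl8 in Ind-8 against tI-3, and those of Rpl23, Rpl8, Rpl7l1 and Rps21 in tI-3 against Con-3. It also ended that of Rpl21 in Ind-8 against tI-3 and of Rpsa in Ind-8 against Con-3. Without tI-3 replicate 2 they were 0.07 and −0.12, with 2 genes higher (Rps27l and Rps15) and 1 lower (Rps14) in Ind-8 against tI-3 and 2 lower (Rps15 and Rpsa) in tI-3 against Con-3. Calls over all profiles also became fewer in that setting, at 8.02% higher and 4.88% lower in Ind-8 against tI-3 and 5.11% higher and 8.78% lower in tI-3 against Con-3. Without tI-3 replicate 1 they were 0.22 and −0.34, with 10 higher and 0 lower in Ind-8 against tI-3 and 8 lower in tI-3 against Con-3, where limma called 2177 of all profiles higher and 1738 lower in the former and 2156 lower in the latter. With 1 tI-3 array left, limma takes the spread of that line from the others. Without Con-3 replicate 3, 1 gene was higher and 1 lower in Ind-8 against Con-3, where limma called 7.9% of all profiles higher and 7.39% lower. In tI-3 against Con-3, 7 were then lower, as were 13.9% of all profiles. For Ind-8 against Con-3, 1 gene was lower without any 1 array other than Ind-8 replicate 2, where 2 were. Without 1 Ind-8 or Con-3 array, 6.99% to 9.29% of all profiles were lower there. In Ind-8 against tI-3, 0 were lower without any 1 Ind-8 array, where 9.37% to 12.5% of all profiles were. Without Con-3 replicate 3, 2 were lower there, as were 15.6% of all profiles. For tI-3 against Con-3, 5 were lower without Con-3 replicate 1 or without Con-3 replicate 2 (14.1% and 12.1% of all profiles).

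The individual changes ran from −0.55 (Rpl21) to 0.55 (Rps27l) in Ind-8 against Con-3, from −0.36 (Rpl21) to 0.75 (Rps27l) in Ind-8 against tI-3, and from −0.72 (Rps6) to 0.27 (Rps4l) in tI-3 against Con-3. The 95% interval of the change lay wholly within 0.5 of 0 on the log2 scale for 20 of the 27 genes in the first comparison, 14 in the second and 15 in the third. For all 18172 profiles the corresponding numbers were 11856, 8495 and 9377.

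**Figure D2:**
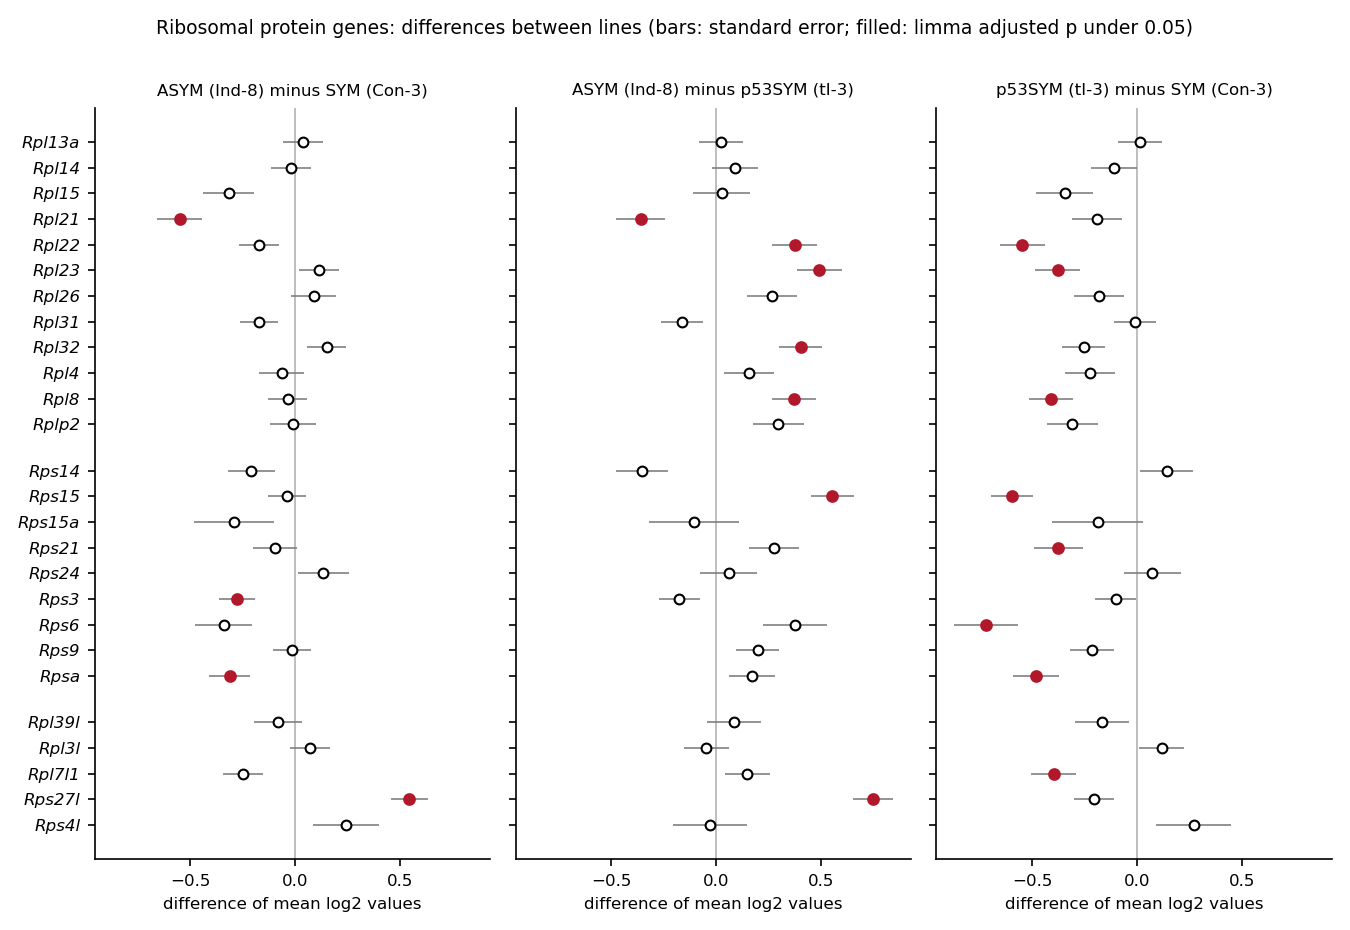
Log2 change with its standard error (bars) for 26 of the 27 ribosomal protein genes in the 3 comparisons, grouped as large subunit, small subunit and paralogues, with genes called by limma marked. Rps27l has the largest rise in both comparisons of Ind-8 cells, at 0.55 and 0.75.

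Rps27l was the 1 ribosomal protein gene that limma called higher in Ind-8 cells than in both other lines, and the rank product test did not call it. It is 1 of 16 listed genes whose proteins bind MDM2, of which 6 had a probe set. Its level was 12.62, 12.57 and 12.42 on the Ind-8 arrays, 11.982, 11.998 and 11.993 on the Con-3 arrays, and 11.82 and 11.75 on the tI-3 arrays. Every Ind-8 array lay above every array of the other lines, and the Con-3 arrays lay above both tI-3 arrays. From a Con-3 mean of 11.99 ± 0.0083 (SD, n = 3) to an Ind-8 mean of 12.54 ± 0.104 (SD, n = 3), the log2 change was 0.55, or 1.46-fold (standard error 0.0865, limma adjusted p = 0.00152). Against tI-3 cells it was 0.75, or 1.68-fold (standard error 0.0967, limma adjusted p = 0.00051). Between tI-3 and Con-3 cells it was −0.20 and did not pass the test (limma adjusted p = 0.15). Mdm2 and Cdkn1a were 1.28 and 2.22 higher in Ind-8 than in tI-3 cells (limma adjusted p = 0.000253 and 3.37e-06). The tI-3 line, in which both lay above their Con-3 levels, had no called rise of Rps27l. The calls in both comparisons of Ind-8 cells held in all 19 other settings of the limma fit and at an adjusted p under 0.01, with changes of 0.50 to 0.60 and of 0.61 to 0.81.

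The start of Rps27l, from 10 bases before to 20 bases into the annotated transcript, lies at chr9:66946076-66946105 on the plus strand in the RefSeq annotation of GRCm38.p6. It is printed because it holds both sequence features searched for in the promoters. RefSeq lists 2 starts for Rps27l, of which the upstream one is printed, and the window of the other holds neither feature. Capitals mark a C followed by 4 pyrimidines (CCTCT here) that begins within 5 bases of the start, and the word CCGGAAG, a core sequence bound by ETS factors.

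Rps27l: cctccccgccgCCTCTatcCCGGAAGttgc

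Promoter windows were matched for 21 of the 27 genes, with 26 windows of 300 bases in all. A C followed by 4 pyrimidines began within 5 bases of the start in 11 of the 26 windows (42.3%), against 18.3% of all 32851 RefSeq promoter windows. By gene the shares were 52.4% of 21 and 21.2% of 27025. CCGGAAG on either strand stood in 10 of the 26 windows (38.5%), against 8.86% of all windows, and by gene in 42.9% against 9.93%. Of the 7 genes with a window that were lower in tI-3 than in Con-3 cells, 2 had the pyrimidine start, as did 9 of the 14 that were not called. Of the 4 with a window that were higher in Ind-8 than in tI-3 cells, 1 had it, as did 10 of the 17 not called. Rps15 and Rpsa, still called lower in tI-3 than in Con-3 cells without tI-3 replicate 2, had no pyrimidine start. Of Rps27l and Rps15, still called higher in Ind-8 than in tI-3 cells without that array, Rps27l had it. For Ind-8 against Con-3, the 1 higher gene had it, as did 0 of the 2 lower and 10 of the 18 not called. These matches describe the letters of the windows, with no test.

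The other MDM2-binding genes with a probe set were Rpl23, Rpl26, Rps3, Rps14 and Rps15. In Ind-8 against Con-3, 1 of the 6 was higher (Rps27l) and 1 lower (Rps3). For Ind-8 against tI-3, 3 were higher (Rps27l, Rps15 and Rpl23) and 0 lower, and in tI-3 against Con-3, 0 were higher and 2 lower (Rps15 and Rpl23). With tI-3 replicate 2 left out, the former were 2 higher (Rps27l and Rps15) and 1 lower (Rps14), and the latter 0 higher and 1 lower (Rps15). At an unadjusted p under 0.05, 1 was higher and 1 lower in Ind-8 against Con-3, and 4 higher and 1 lower in Ind-8 against tI-3. In tI-3 against Con-3, 0 were higher and 2 lower at that threshold. With all arrays, limma called 10.8% of all profiles higher and 10.2% lower in Ind-8 against Con-3. These shares were 15.9% and 14.8% in Ind-8 against tI-3, and 10.3% and 15.6% in tI-3 against Con-3. Unadjusted, all 18172 profiles gave 2826 and 3179, 3771 and 4151, and 3157 and 3740. The rank product test called 0 of the 6 in each comparison. Rpl5 and Rpl11, which bind MDM2 as a complex with ribosomal RNA, had no matched probe set, nor had Rpl6, Rpl37, Rps7, Rps20, Rps25, Rps26, Rps27 and Rps27a.

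Rps15, a protein of the small subunit head, measured 14.05, 14.08 and 13.99 on the Ind-8 arrays, 14.06, 14.08 and 14.10 on the Con-3 arrays, and 13.61 and 13.36 on the tI-3 arrays. Both tI-3 arrays lay below all others, and the Ind-8 and Con-3 ranges overlapped. The tI-3 mean was 13.48 ± 0.173 (SD, n = 2). The change was −0.60 in tI-3 against Con-3 (standard error 0.101, limma adjusted p = 0.00187) and 0.56 in Ind-8 against tI-3 (standard error 0.101, limma adjusted p = 0.00317). For Ind-8 against Con-3 it was −0.04 (limma adjusted p = 0.792). Without tI-3 replicate 2 both calls held, at −0.47 and 0.43 (limma adjusted p = 0.0264 and 0.04). They also held, at −0.36 and 0.29, when the arrays were quantile-normalized again (limma adjusted p = 0.0145 and 0.0329). With the hybridization controls as a covariate the first held and the second did not (limma adjusted p = 0.0948).

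Rpl23, a large subunit protein, measured 8.07, 8.15 and 7.94 in Ind-8 cells, 8.03, 7.97 and 7.81 in Con-3 cells, and 7.58 and 7.54 in tI-3 cells. The tI-3 arrays were again the lowest of the 8, and Ind-8 and Con-3 overlapped. The change was 0.49 in Ind-8 against tI-3 (standard error 0.107, limma adjusted p = 0.00734) and −0.38 in tI-3 against Con-3 (standard error 0.107, limma adjusted p = 0.0254). Without tI-3 replicate 2 the values stayed near these, at 0.47 and −0.36, but neither was called (limma adjusted p = 0.0571 and 0.129). The call in tI-3 against Con-3 was also lost without tI-3 replicate 1, Con-3 replicate 1 or Con-3 replicate 2 (limma adjusted p = 0.0816, 0.0687 and 0.0758).

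The starts of Rps15 and Rpl23 are printed beside that of Rps6, the member with the largest fall in tI-3 against Con-3, over the same 30 bases of GRCm38.p6 by RefSeq. Rps15 lies at chr10:80292421-80292450 on the plus strand, Rpl23 at chr11:97782420-97782449 on the minus strand, and Rps6 at chr4:86857348-86857377 on the minus strand. Capitals mark the pyrimidine start, which is in the Rps6 window and has no match in the other two.

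Rps15: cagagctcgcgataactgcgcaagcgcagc
Rpl23: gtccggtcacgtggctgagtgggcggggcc
Rps6: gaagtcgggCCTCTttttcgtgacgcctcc

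Rps3, which lies at the mRNA entry of the small subunit, measured 9.33, 9.38 and 9.20 in Ind-8 cells, 9.52, 9.59 and 9.63 in Con-3 cells, and 9.51 and 9.45 in tI-3 cells. All Ind-8 arrays lay below all others. The change of −0.28 in Ind-8 against Con-3 passed narrowly (standard error 0.087, limma adjusted p = 0.0461). The call was lost without any 1 of the 8 arrays, with adjusted p-values of up to 0.149 (without Ind-8 replicate 3). Against tI-3 cells the change was −0.18 and not called, but −0.30 and called when the arrays were quantile-normalized again (limma adjusted p = 0.0341).

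Rps14 and Rpl26 were not called in any comparison. Rps14 measured 12.99, 13.04 and 13.00 in Ind-8, 13.07, 13.22 and 13.37 in Con-3, and 13.53 and 13.19 in tI-3 cells. Its Ind-8 arrays lay below all others, with a change of −0.35 against tI-3 cells (limma adjusted p = 0.0546). That change was called at −0.58 after a second quantile normalization, and at −0.52 without tI-3 replicate 2 (limma adjusted p = 0.00193 and 0.0411). It was also called at the same value without Con-3 replicate 1 or replicate 3 (limma adjusted p = 0.0467 and 0.048). Rpl26, whose protein is known to bind the p53 mRNA, changed by 0.09, 0.27 and −0.18 in the 3 comparisons in turn, with values of 13.96 and 13.56 on the tI-3 arrays. Without tI-3 replicate 1 its change against tI-3 cells was called, at 0.47 (limma adjusted p = 0.0245).

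**Figure D3:**
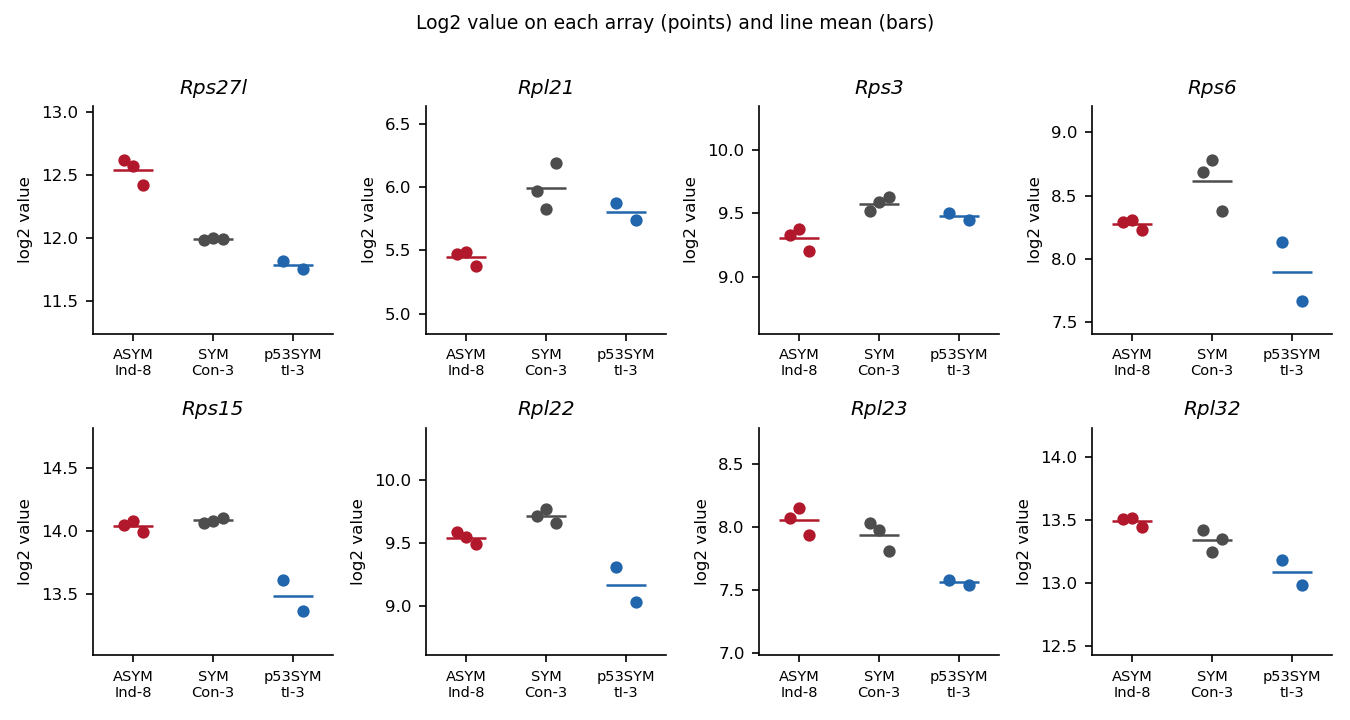
Level on each of the 8 arrays, on the log2 scale, for 8 of the ribosomal protein genes (Rps27l, Rpl21, Rps3, Rps6, Rps15, Rpl22, Rpl23 and Rpl32), with points for arrays and bars for the mean of each line. Rps27l is highest on the Ind-8 arrays, at 12.42 to 12.62, and Rps15 lowest on the tI-3 arrays, at 13.36 and 13.61.

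In the large subunit, 0 of 12 genes were higher and 1 was lower in Ind-8 than in Con-3 cells, where 0 were higher and 2 lower at an unadjusted p under 0.05. In Ind-8 against tI-3, 4 were higher and 1 lower, and in tI-3 against Con-3, 0 were higher and 3 lower. All of these calls that involve tI-3 cells were lost without tI-3 replicate 2, where 0 of the 12 were called in either comparison. At an unadjusted p under 0.05 the numbers of higher and lower genes were 6 and 1 in Ind-8 against tI-3 and 0 and 6 in tI-3 against Con-3. With all arrays, limma called 10.8% of all profiles higher and 10.2% lower in Ind-8 against Con-3. These shares were 15.9% and 14.8% in Ind-8 against tI-3, and 10.3% and 15.6% in tI-3 against Con-3. Unadjusted, all 18172 profiles gave 2826 and 3179, 3771 and 4151, and 3157 and 3740. By rank product, 0 of the 12 were called in each comparison. Median changes were −0.03, 0.21 and −0.24 in this order.

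Rpl21, the gene called lower in Ind-8 cells, measured 5.47, 5.49 and 5.37 in Ind-8, 5.97, 5.83 and 6.19 in Con-3, and 5.87 and 5.74 in tI-3 cells. The Ind-8 arrays lay below all others, while Con-3 and tI-3 overlapped. The change was −0.55 against Con-3 cells (standard error 0.106, limma adjusted p = 0.00457), which held at an adjusted p under 0.01 and in all 19 other settings of the fit, from −0.63 to −0.45. Against tI-3 cells it was −0.36 (standard error 0.119, limma adjusted p = 0.0426). That call was lost without any 1 Ind-8 or tI-3 array or without Con-3 replicate 1, with adjusted p-values from 0.0501 to 0.194. Ribosomal protein genes have many processed copies in the genome, and which copies the probes match was not tested.

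Rpl22 measured 9.59, 9.55 and 9.49 in Ind-8, 9.71, 9.77 and 9.66 in Con-3, and 9.31 and 9.03 in tI-3 cells. The 3 lines did not overlap, with Con-3 highest and tI-3 lowest. In tI-3 against Con-3 the change was −0.55 (standard error 0.107, limma adjusted p = 0.00407), and −0.41 without tI-3 replicate 2, which ended the call (limma adjusted p = 0.0523). For Ind-8 against tI-3 it was 0.37 (standard error 0.107, limma adjusted p = 0.0245). That call was lost without tI-3 replicate 2 (0.24, limma adjusted p = 0.218), Ind-8 replicate 1 (limma adjusted p = 0.065) or Ind-8 replicate 2 (limma adjusted p = 0.0572).

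Rpl32 measured 13.50, 13.51 and 13.44 in Ind-8, 13.42, 13.24 and 13.34 in Con-3, and 13.18 and 12.98 in tI-3 cells. The lines did not overlap, with Ind-8 highest. The change of 0.40 against tI-3 cells was called (standard error 0.103, limma adjusted p = 0.0152), and was 0.30 without tI-3 replicate 2 (limma adjusted p = 0.136). Rpl8, a protein near the catalytic centre of the large subunit, completes the called genes and was singled out after its values were seen. It measured 13.99, 13.89 and 13.87 in Ind-8, 13.93, 13.97 and 13.96 in Con-3, and 13.68 and 13.41 in tI-3 cells. The tI-3 arrays lay below all others, with changes of 0.37 in Ind-8 against tI-3 and −0.41 in tI-3 against Con-3 (limma adjusted p = 0.0239 and 0.0167). When the arrays were quantile-normalized again these were 0.05 and −0.13, and without tI-3 replicate 2 they were 0.24 and −0.27, with neither called in either setting. The first call was also lost without Ind-8 replicate 1 and the second without Con-3 replicate 2 (limma adjusted p = 0.0679 and 0.0506).

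Of the acidic stalk, the part of the large subunit that recruits translation factors, Rplp2 had a matched probe set and Rplp0 and Rplp1 had none. Rplp2 measured 14.28, 14.08 and 14.00 in Ind-8, 14.14, 14.15 and 14.10 in Con-3, and 13.98 and 13.66 in tI-3 cells. Both tI-3 arrays lay below all others, and Ind-8 and Con-3 overlapped. Its changes of −0.01, 0.30 and −0.31 in the 3 comparisons did not pass the test (limma adjusted p = 0.961, 0.0884 and 0.0915). Without tI-3 replicate 1 the changes that involve tI-3 cells were called, at 0.46 and −0.47 (limma adjusted p = 0.0448 and 0.0446). The other 6 genes of the large subunit (Rpl13a, Rpl14, Rpl15, Rpl26, Rpl31 and Rpl4) were not called in any comparison. Without tI-3 replicate 1, Rpl15 and Rpl4 were called lower in tI-3 than in Con-3 cells, at −0.54 and −0.42 (limma adjusted p = 0.034 and 0.0332). With the arrays quantile-normalized again, Rpl13a was called higher there, at 0.28 (limma adjusted p = 0.0375), as was Rps14 of the small subunit, at 0.42 (limma adjusted p = 0.008).

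In the small subunit, 0 of 10 genes were higher and 2 lower in Ind-8 than in Con-3 cells, where 0 were higher and 3 lower at an unadjusted p under 0.05. In Ind-8 against tI-3, 1 was higher and 0 lower, and in tI-3 against Con-3, 0 were higher and 4 lower. Leaving out tI-3 replicate 2 gave 1 higher and 1 lower (Rps14) in the former and 2 lower in the latter. At an unadjusted p under 0.05 and with all arrays, the numbers that involve tI-3 cells were 3 and 1, and 0 and 4. With all arrays, limma called 10.8% of all profiles higher and 10.2% lower in Ind-8 against Con-3. These shares were 15.9% and 14.8% in Ind-8 against tI-3, and 10.3% and 15.6% in tI-3 against Con-3. Unadjusted, all 18172 profiles gave 2826 and 3179, 3771 and 4151, and 3157 and 3740. By rank product, 0 of the 10 were called in each comparison. Median changes were −0.15, 0.15 and −0.20.

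Rps6, the small subunit protein that S6 kinase phosphorylates, measured 8.29, 8.31 and 8.23 in Ind-8, 8.68, 8.78 and 8.38 in Con-3, and 8.13 and 7.67 in tI-3 cells. The 3 lines did not overlap, with Con-3 highest and tI-3 lowest. For tI-3 against Con-3 the change was −0.72, the largest fall among the 27 (standard error 0.152, limma adjusted p = 0.00633). Without tI-3 replicate 2 it was −0.49 and not called (limma adjusted p = 0.0797). In Ind-8 against Con-3 it was −0.34 and in Ind-8 against tI-3 0.38, neither called (limma adjusted p = 0.108 and 0.0837). The former was called at −0.54 with the hybridization controls as a covariate (limma adjusted p = 0.018). The latter was called at 0.61 without tI-3 replicate 1 (limma adjusted p = 0.0287).

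Rpsa, the small subunit protein also known as the laminin receptor, measured 4.10, 4.21 and 3.89 in Ind-8, 4.41, 4.39 and 4.34 in Con-3, and 3.86 and 3.93 in tI-3 cells. Every Con-3 array lay above every other array, but the probe set's mean lies below the dim end of the array. The change was −0.31 in Ind-8 against Con-3 (standard error 0.0982, limma adjusted p = 0.0466) and −0.48 in tI-3 against Con-3 (standard error 0.11, limma adjusted p = 0.00911). The first call was lost without any 1 array other than Ind-8 replicate 2, with adjusted p-values from 0.0621 to 0.155. The second was lost without tI-3 replicate 1 (limma adjusted p = 0.0589).

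Rps21, singled out after its values were seen as the last of the called genes, measured 13.78, 13.76 and 13.77 in Ind-8, 13.84, 13.91 and 13.85 in Con-3, and 13.69 and 13.30 in tI-3 cells. The lines did not overlap, with Con-3 highest and tI-3 lowest. The change of −0.37 in tI-3 against Con-3 was called (limma adjusted p = 0.0392), and was −0.18 without tI-3 replicate 2 and −0.09 when the arrays were quantile-normalized again (limma adjusted p = 0.35 and 0.529). The call was also lost without each of the other arrays in turn except tI-3 replicate 1, with adjusted p-values from 0.0514 to 0.108. Without tI-3 replicate 1 its change in Ind-8 against tI-3 was called, at 0.47 (limma adjusted p = 0.0216). The other 5 genes of the small subunit were not called in any comparison.

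Among the 5 paralogues, Rps27l was the 1 called gene in both comparisons of Ind-8 cells and Rpl7l1 the 1 called gene in tI-3 against Con-3. Rpl7l1 measured 9.49, 9.24 and 9.32 in Ind-8, 9.70, 9.51 and 9.61 in Con-3, and 9.19 and 9.23 in tI-3 cells. The lines did not overlap, with Con-3 highest. Its change was −0.40 in tI-3 against Con-3 (standard error 0.108, limma adjusted p = 0.0209) and −0.25 in Ind-8 against Con-3 (limma adjusted p = 0.0969). The first was not called without Con-3 replicate 1, tI-3 replicate 1 or tI-3 replicate 2 (limma adjusted p = 0.0583, 0.0963 and 0.0857). Rpl3l, known from muscle, Rpl39l, known from testis, and Rps4l had means below the dim end and were not called in any comparison.

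Rack1, a ribosomal protein of the small subunit named otherwise, was read by 1 probe set. It measured 13.90, 13.89 and 13.89 in Ind-8, 13.79, 13.85 and 13.90 in Con-3, and 13.66 and 13.47 in tI-3 cells. The tI-3 arrays lay below all others. The change in Ind-8 against tI-3 was 0.33 (standard error 0.097, limma adjusted p = 0.0288), but −0.0003 when the arrays were quantile-normalized again. The call was lost without tI-3 replicate 2, at 0.23, and without any 1 Ind-8 array.

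Other genes of the translation machinery were counted with the same fit. Of 16 listed translation factors and related genes whose mRNAs start with the pyrimidine run, 9 had a probe set. For Ind-8 against Con-3, 0 were higher and 2 lower: Nap1l1, a histone chaperone, by a log2 change of −0.45 (standard error 0.0828, limma adjusted p = 0.00359), and Eef1d, a subunit of the exchange factor of elongation factor 1, by −0.29. For Ind-8 against tI-3, 4 were higher and 1 lower, with Eef2, the translocase of elongation, at 0.49 (standard error 0.106, limma adjusted p = 0.00743) and Eif3e, a subunit of initiation factor 3, at 0.48 (standard error 0.105, limma adjusted p = 0.00764). In tI-3 against Con-3, 1 was higher and 5 lower, with Eef1d at −0.72 and Eif3e at −0.52 (limma adjusted p = 0.000552 and 0.00481). When the arrays were quantile-normalized again, 3 were higher and 2 lower in Ind-8 against tI-3, where Eef2 lost its call. With that scaling, 1 was higher and 2 lower in tI-3 against Con-3. Without tI-3 replicate 2 the counts of higher and lower genes were 0 and 0 in Ind-8 against tI-3 and 0 and 1 in tI-3 against Con-3. Without any 1 Con-3 array, Ind-8 replicate 2 or Ind-8 replicate 3, 3 were lower in tI-3 against Con-3 and 1 was lower in Ind-8 against Con-3. The 1 lower in Ind-8 against tI-3 (Eif4b) was also lost without Ind-8 replicate 1 or tI-3 replicate 1. The list's median changes were 0.05, 0.29 and −0.29, the first of which turned to −0.01 without Con-3 replicate 1. At an unadjusted p under 0.05, the numbers of higher and lower genes were 2 and 2, 6 and 1, and 1 and 5 in the 3 comparisons in turn. Unadjusted, all 18172 profiles gave 2826 and 3179, 3771 and 4151, and 3157 and 3740. Limma with all arrays called 10.8% of all profiles higher and 10.2% lower in Ind-8 against Con-3. These shares were 15.9% and 14.8% in Ind-8 against tI-3, and 10.3% and 15.6% in tI-3 against Con-3. The rank product test called 0 of the 9 in any comparison.

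Regulators of these mRNAs in the mTOR and Myc pathways were read by 14 probe sets of 13 genes, with none matched for Larp1. In Ind-8 against Con-3, 0 were higher and 7 lower, with Eif4ebp2, a repressor of the cap-binding protein, at −0.72 (standard error 0.143, limma adjusted p = 0.00519) and Eif4e, the cap-binding protein, at −0.55 (standard error 0.103, limma adjusted p = 0.00394). Among the 7, Rps6kb1 was read by more than 1 probe set, and with 1 probe set per gene 6 were lower. The count of 7 lower probe sets became 4 without Ind-8 replicate 1, 3 without Ind-8 replicate 2 and 4 without Con-3 replicate 3. In Ind-8 against tI-3, 1 was higher and 0 lower: Tsc2, which restrains mTOR, at 0.61 (standard error 0.104, limma adjusted p = 0.0022). For tI-3 against Con-3, 0 were higher and 6 lower, with Myc at −0.89 (standard error 0.157, limma adjusted p = 0.00229) and Eif4ebp2 at −0.66 (standard error 0.16, limma adjusted p = 0.0124). This count was 4 without tI-3 replicate 1 and 5 without tI-3 replicate 2. For Ind-8 against tI-3, 1 was lower without Con-3 replicate 1 and 1 without Ind-8 replicate 3. At an unadjusted p under 0.05, the numbers of higher and lower probe sets were 0 and 7, 2 and 1, and 0 and 7 in the 3 comparisons in turn. Unadjusted, all 18172 profiles gave 2826 and 3179, 3771 and 4151, and 3157 and 3740. Limma with all arrays called 10.8% of all profiles higher and 10.2% lower in Ind-8 against Con-3. These shares were 15.9% and 14.8% in Ind-8 against tI-3, and 10.3% and 15.6% in tI-3 against Con-3. The rank product test called 0 of the 14 probe sets of the list in any comparison. Medians were −0.30, 0.04 and −0.31, and that of Ind-8 against tI-3 turned to −0.08 when the arrays were quantile-normalized again.

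Mitochondrial ribosomal proteins, which build the ribosomes of mitochondria, were read by 71 probe sets of 70 genes. For Ind-8 against Con-3, 5 were higher and 16 lower, with Mrpl12 at −0.89 (standard error 0.0941, limma adjusted p = 0.000161) and Mrps7 at −0.64 (standard error 0.0926, limma adjusted p = 0.00098). In Ind-8 against tI-3, 22 were higher and 3 lower, with Mrpl24 at 1.03 (standard error 0.114, limma adjusted p = 0.000218) and Mrpl36 at 0.87 (standard error 0.099, limma adjusted p = 0.00026). In tI-3 against Con-3, 1 was higher and 33 lower, with Mrpl32 at −1.15 (standard error 0.135, limma adjusted p = 0.000255) and Mrps7 at −0.94 (standard error 0.104, limma adjusted p = 0.000181). The median changes of −0.11, 0.21 and −0.29 became −0.13, 0.07 and −0.18 when the arrays were quantile-normalized again. Without tI-3 replicate 2, 10 were higher and 0 lower in Ind-8 against tI-3 and 16 were lower in tI-3 against Con-3. The 3 lower ones in Ind-8 against tI-3 numbered 0 without Con-3 replicate 2, Ind-8 replicate 1, Ind-8 replicate 2 or tI-3 replicate 1, and 1 without Ind-8 replicate 3. The 1 higher in tI-3 against Con-3 was lost without Con-3 replicate 1, Con-3 replicate 2 or either tI-3 array. The 5 higher in Ind-8 against Con-3 numbered 3 without Ind-8 replicate 2. The rank product test called 1 as lower in Ind-8 against Con-3 (Mrpl12) and 1 as lower in tI-3 against Con-3 (Mrpl32). By limma with all arrays, 10.8% of all profiles were higher and 10.2% lower in Ind-8 against Con-3. These shares were 15.9% and 14.8% in Ind-8 against tI-3, and 10.3% and 15.6% in tI-3 against Con-3.

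**Figure D4:**
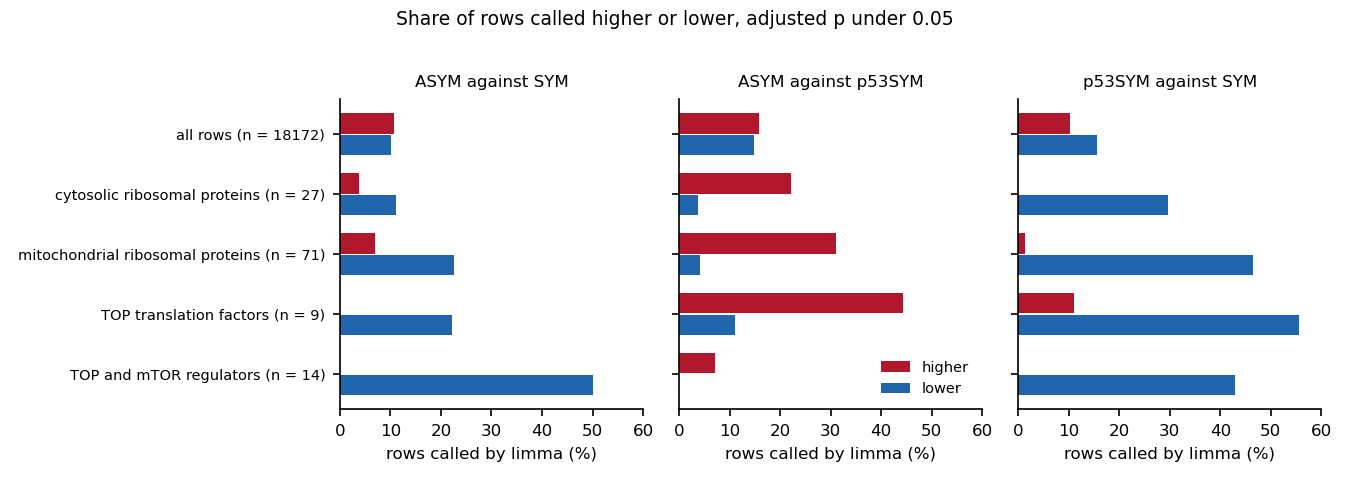
Percent of probe sets called higher or lower by limma in each of the 3 comparisons, for all profiles, the 27 cytosolic ribosomal protein genes, the mitochondrial ribosomal protein genes, the translation factors and the mTOR and Myc regulators (TOP stands for mRNAs with the pyrimidine start). For tI-3 against Con-3, 29.6% of the 27 were lower, against 46.5% of the mitochondrial ribosomal protein probe sets and 15.6% of all profiles. Of the rows above the 25th percentile, fitted alone, 21.3% were lower there. The shares include tI-3 replicate 2, on which the bright end of the array was low, and the median fall of the 27 was smaller without it.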

How the data were processed

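RNA of 8 cultures was read on Affymetrix mouse arrays. The deposited log2 values are the authors' RMA levels, made with a custom definition of probe sets by RefSeq transcript. Of 22587 probe sets, 64 controls were set aside, and the other 22523 hold 18172 distinct value profiles (values equal to 6 decimals), each counted once. A RefSeq table of GRCm38.p6 gave symbols for 18294 probe sets (81.2%). A model with 1 mean per line (3 lines) was fitted in limma 3.58.1 under R 4.3.3, with calls at an adjusted p under 0.05 (Benjamini-Hochberg). The rank product test of the study's methods was re-implemented with 100 permutations and tested on simulated data, as was the limma fit. Python 3.11.15 with numpy 2.4.6, pandas 2.3.3, scipy 1.17.1 and matplotlib 3.10.9 made the tables and plots. The number of arrays and the level above the dim end set the precision. The members and lists were chosen with earlier results of these data known. Named genes were the MDM2-binding, stalk and paralogue members, the 3 largest called changes in each direction per comparison, label checks, and the 2 largest called changes of each context list. Alternatives were other filters, priors, covariates, scalings, thresholds, core genes alone, and each array left out. A further one, a second quantile normalization without Con-3 replicate 3, was chosen after seeing the data.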

Additional observations from a re-analysis of the deposited data

How the results depend on the processing

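Of the alternative values for single ribosomal protein genes, 1547 kept their direction and side of the threshold, 113 lost the call, 29 gained one and 0 reversed. With the rank product test in place of limma, all 6 counts of called genes were 0 (limma gave 1 higher and 3 lower in Ind-8 against Con-3, 6 and 1 in Ind-8 against tI-3, 0 and 8 in tI-3 against Con-3). With core genes alone, 0 were higher in Ind-8 against Con-3, since Rps27l is a paralogue. At an adjusted p under 0.01, 1 was lower in Ind-8 against Con-3, 3 higher and 0 lower in Ind-8 against tI-3, and 4 lower in tI-3 against Con-3. The share of all profiles at that threshold is not given here, so these counts cannot be set against the whole array. On the 2 compared lines only, 1 was lower in Ind-8 against Con-3 (9.54% of all profiles). With the hybridization controls as a covariate, 1 was higher and 0 lower in Ind-8 against tI-3, and 4 lower in tI-3 against Con-3, where 3.86%, 1.93% and 12.1% of all profiles were. When the arrays were quantile-normalized again, 3 were higher and 2 lower in Ind-8 against tI-3, 2 higher and 4 lower in tI-3 against Con-3 (2175, 2285, 2095 and 2267 of all 18172 profiles), and the median of the latter was −0.0703. With Con-3 replicate 3 also left out, an alternative chosen after seeing the data, these counts were 3, 2, 1 and 4. The shares of all profiles were then 11.5%, 12.4%, 9.53% and 10.6%. Arrays centred on their medians gave a median of −0.11 in Ind-8 against Con-3 and 2 lower in Ind-8 against tI-3 (19.3% of all profiles). Rows above the 25th percentile also gave 2 lower there (17.0% of those rows). The share of higher genes among all called profiles in Ind-8 against Con-3 went from 51.5% to 41.3% on centring. With the replicate number as a block, 1 was higher and 2 lower in Ind-8 against Con-3, 8 higher and 2 lower in Ind-8 against tI-3, and 0 higher and 8 lower in tI-3 against Con-3 (12.1%, 11.2%, 17.8%, 18.6%, 12.2% and 16.3% of all profiles). The files do not show that equal replicate numbers pair arrays (across genes, r of 0.28, 0.03 and 0.44 between Ind-8 and Con-3 arrays of the same number). Leaving out 1 array at a time gave 1 to 2 lower in Ind-8 against Con-3, 2 to 10 higher and 0 to 2 lower in Ind-8 against tI-3, and 2 to 8 lower in tI-3 against Con-3, with a median there of −0.34 to −0.12. With 1 tI-3 array left, that array is assumed to vary like the other lines. Rack1 in Ind-8 against tI-3 changed sign, to −0.0003 when quantile-normalized again and −0.0004 with Con-3 replicate 3 also left out. The causes of these shifts were not tested.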
